A study of Mus musculus with 48 samples.

Results

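The writers, erasers and readers of DNA methylation were examined as targets of methylation themselves, namely the DNA methyltransferase genes Dnmt1, Dnmt3a and Dnmt3b, the demethylation genes Tet1, Tet2 and Tet3, and Uhrf1, Mbd2 and Gadd45b. All 9 genes were found in the annotation, and their members in the data were the counted regions (loci) that overlapped the annotated gene body or the 5 kb on either side of it. These were 73 of 187695 loci, and each of the 9 genes held between 2 and 20 of them. Counts were read per locus and also summed per gene, beside the sums of all 37004 annotated genes with at least 1 locus.

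DNA came from the amygdala of adult male mice of 4 months of age on a C57BL/6 strain background (C57BL/6N in the study's methods), with 8 mice in each of 6 groups and 1 library per mouse. The groups were wildtype (Tph2+/+), heterozygous (Tph2+/-) and homozygous knockout (Tph2-/-) mice, each either with maternal separation (MS, removal from the dam for 3 h per day on postnatal days 2 to 15) or without it (C). All were offspring of Tph2+/- parents, the Tph2 null allele was constitutive, the mice had been through behavioural tests before tissue was taken, and the amygdalae of both hemispheres of a mouse were blended, so that cell types were not separated. Sheared DNA was enriched by a protein domain that binds methylated CpG (MBD) and sequenced (MBD-seq), so a count stands for captured methylated DNA and not for transcription of the gene.

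In the textbook account, DNMT3A and DNMT3B place methyl groups on unmethylated CpG sites, and DNMT1 copies the mark onto the new strand after replication, guided by UHRF1, which binds half-methylated CpG. TET1, TET2 and TET3 oxidise 5-methylcytosine to 5-hydroxymethylcytosine and further products, which base excision repair can replace by cytosine. MBD2 binds methylated CpG and recruits repressor complexes, and Gadd45b is an activity-induced gene linked to demethylation in neurons. Neurons carry much hydroxymethylcytosine, which MBD capture recovers only weakly.

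The totals ran from 7.72 to 14.1 Mcounts per library (median 10.7, with the SI prefix mega), of which the 73 loci took 1103 to 3750 counts or 0.0136 to 0.0284%. Replicates 3 and 7 of Tph2-/- MS, whose totals were the lowest of that group, did not enter the tests, which used 46 libraries. The sample numbers did not mix the conditions, since C held S1 to S17 and S42 to S48, and MS held S18 to S41. Sample order and MS therefore cannot be told apart, and values of S18 to S26, or without them, are given beside most called member loci. The tissue label could not be checked against RNA markers here, as methylation counts do not measure expression. Among 170 loci at 11 defining genes of neurons, oligodendrocytes, astrocytes and microglia, 1 (0.588%) passed the limits of the study in MS against C over genotypes, beside 3.63% of all loci. The most were 3 (1.76%), in Tph2-/- against Tph2+/+ and in GE1, beside 0.748% and 0.626% of all loci, and the part of cell types in the results was not tested.

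The 73 loci lay mainly in the bodies of the genes. Of these, 50 overlapped a coding exon, 13 lay in introns, 6 in the upstream and 2 in the downstream flank, 1 over a non-coding exon and 1 over an untranslated exon. Dnmt1 held 20 loci, Uhrf1 11, Dnmt3b 10, Tet1 9, Tet3 7, Dnmt3a 5, Tet2 5, Mbd2 4 and Gadd45b 2, both of which lay outside the gene in its flanks. Relative to length including flanks, Uhrf1 with 0.365 loci per kb and Dnmt1 with 0.319 were the most densely covered, whereas Dnmt3a, a gene of 108437 bp, held 0.0422 per kb. The member loci resembled the rest of the table, with a median width of 941 bp against 916 bp, 2.00 against 1.82 CpG per 100 bp, and a median coverage of 2.80 against 2.76 CPM per kb (CPM is the normalised count per Mcount of the library, here divided by the width of the locus). Their repeat content was lower, with a median of 12.6% against 23.2% of the bases.

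**Figure D1:**
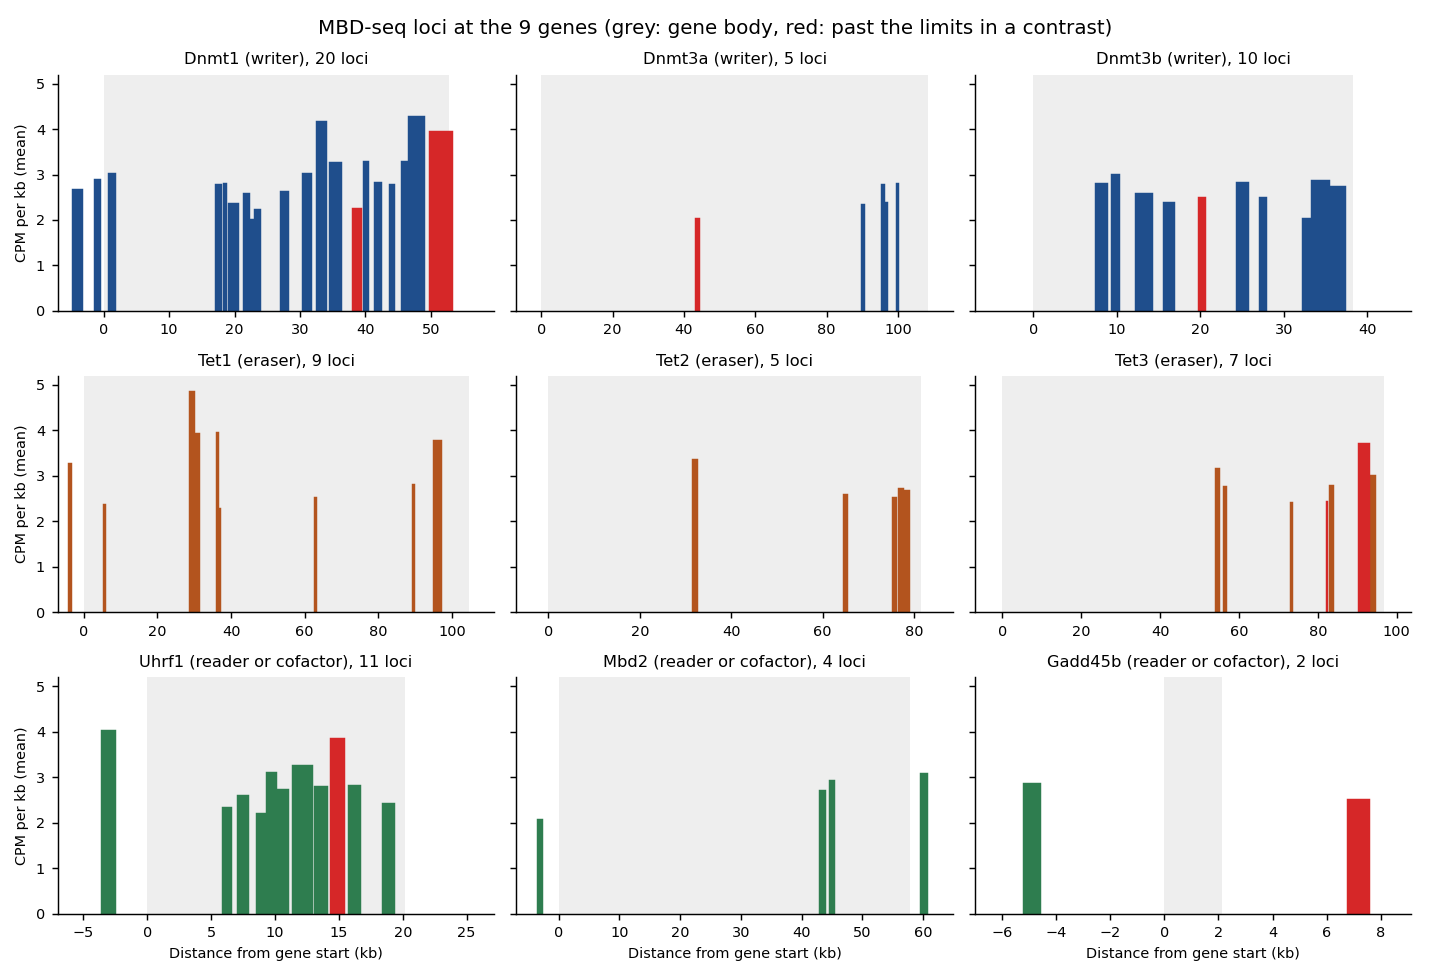
Mean CPM per kb over 46 libraries (y) of each of the 73 loci, drawn to width at its distance in kb from the annotated gene start (x), for the 9 genes, with the gene body in grey and loci past the limits in any contrast in red. No bar covers the annotated gene start at 0 kb, but a Tet1 and a Dnmt3a bar each cover the start of another coding transcript. In Dnmt3a, Tet2 and Tet3 most bars stand in the distal part of the gene.

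The captured level per kb of locus differed moderately between the genes. Summed over its loci, Tet1 was highest with 3.53 ± 0.278 CPM per kb (SD), followed by Dnmt1 with 3.16 ± 0.204 and Tet3 with 3.16 ± 0.50. Uhrf1 with 3.00 ± 0.273, Tet2 with 2.82 ± 0.354, Mbd2 with 2.72 ± 0.442, Gadd45b with 2.67 ± 0.655 and Dnmt3b with 2.66 ± 0.217 followed, and Dnmt3a was lowest with 2.44 ± 0.455. Apart from Tet1 and Dnmt1, neighbours in this order differed by less than the larger of their SDs. The highest single locus, chr10:62879002-62880267 over a coding exon of Tet1, reached 4.86 CPM per kb and held 2.84 CpG per 100 bp. The lowest, chr9:20936999-20937571 over a coding exon of Dnmt1, had 2.02 CPM per kb and 1.57 CpG per 100 bp. Over the 73 loci, CpG density and CPM per kb had a Spearman coefficient of 0.31, beside 0.45 over all loci. These loci share the same libraries, and capture itself depends on CpG density.

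None of the RefSeq promoter windows of these genes (250 bases before to 50 after the start, GRCm38.p6) overlapped a locus. The RefSeq promoters at hand gave 13 windows for 8 of the genes and none for Mbd2, whose promoter was thus not examined. The 13 windows held 2 to 57 CpG, and the nearest locus lay 237 to 36537 bp away. Among all 32851 RefSeq promoters 10.5% overlapped a locus, with 25.6% of those that held 6 to 10 CpG and 2.36% of those with 16 or more, the class of 10 of the 13 windows. No overlap says only that no locus was listed there. Other transcript starts did lie in loci. The Tet1 locus chr10:62879002-62880267 and the Dnmt3a locus chr12:3895573-3896418 each held 1 annotated coding transcript start outside these windows. The 250 bases upstream of 2 starts are shown to contrast a start that is poor with one that is rich in CpG, 5′ to 3′ on the strand of the gene with each CpG in capitals. They belong to the Dnmt1 start with the longest transcript (2 CpG in the stretch, chr9:20959889-20960138, minus strand) and to a CpG-rich Dnmt3a start (38, chr12:3806730-3806979, plus strand).
Dnmt1 upstream start: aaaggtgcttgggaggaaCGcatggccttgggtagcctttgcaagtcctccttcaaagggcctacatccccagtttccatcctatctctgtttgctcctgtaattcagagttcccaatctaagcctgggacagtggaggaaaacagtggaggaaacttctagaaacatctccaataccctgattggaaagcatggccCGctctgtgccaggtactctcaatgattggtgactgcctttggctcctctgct
Dnmt3a CpG-rich start: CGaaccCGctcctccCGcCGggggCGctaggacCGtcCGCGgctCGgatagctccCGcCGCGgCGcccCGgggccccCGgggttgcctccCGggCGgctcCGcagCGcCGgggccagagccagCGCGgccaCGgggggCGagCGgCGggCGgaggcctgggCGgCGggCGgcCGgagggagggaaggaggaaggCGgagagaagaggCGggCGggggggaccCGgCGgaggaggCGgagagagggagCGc

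**Figure D2:**
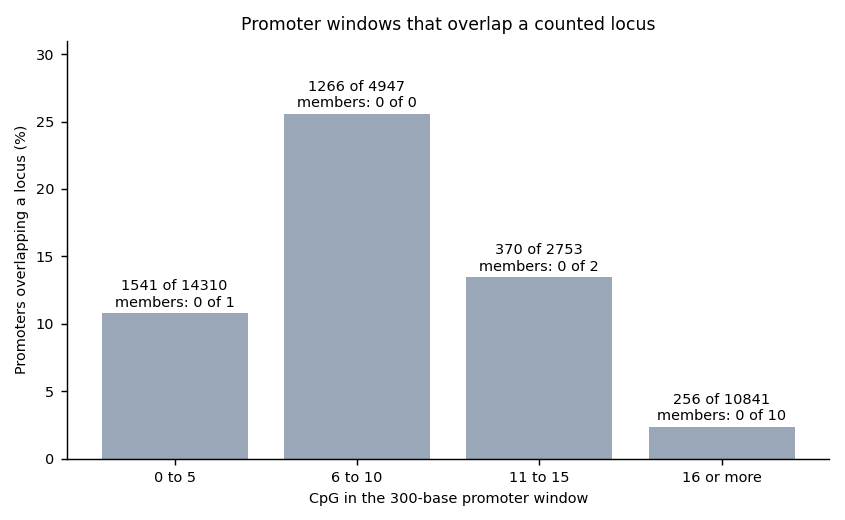
Share of RefSeq promoter windows that overlap a counted locus (y, percent) by the number of CpG in the 300-base window (x), with the counts of all promoters and of the 13 windows of the member genes above each bar. The bar is lowest (2.36%) for windows with 16 or more CpG, which hold 10 of the 13 member windows, and 0 of the 13 overlap a locus.

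The Dnmt1 start that is poor in CpG was the one with captured methylation closest to it. Its loci at chr9:20958086-20959281 and chr9:20960375-20961328 lay on either side of the start at 20959888, with 3.04 and 2.89 CPM per kb. The CpG-rich Dnmt1 windows at starts 20952623 (33 CpG) and 20952979 (12 CpG) had no locus within 4857 bp. Near the CpG-poor start, the locus of the upstream flank held a lowest, median and highest level of 1.80, 2.87 and 4.28 CPM in C (24 libraries) and 1.16, 2.58 and 4.12 CPM in MS (22 libraries). These ranges overlapped almost throughout. In Tet1, the upstream flank locus chr10:62912313-62913300 was centred 3810 bp before the annotated gene start. It held 1.80, 3.06 and 4.30 CPM in C and 2.29, 3.40 and 5.65 CPM in MS, again with broad overlap. The RefSeq start of Tet1 was another one, at 62887324, and its window lay 7008 bp from the nearest locus.

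The question of the design was whether MS, the Tph2 genotype or their interaction went with a different methylation of these genes. Over all genotypes, 3 of 73 loci (4.11%) passed the limits of the study in MS against C (a log2 fold change of more than 0.2 either way at an unadjusted p under 0.01), all 3 higher in MS, while 3.63% of all loci did. The 3 lay in Dnmt1, Uhrf1 and Dnmt3a. In blended tissue, other shares of cell types and other methylation within a cell type cannot be told apart. Within genotypes, MS against C passed at 1 locus in Tph2+/+ mice (lower in MS, background 1.31%), at 0 in Tph2+/- mice (0.779%), and at 3 in Tph2-/- mice (2 higher and 1 lower in MS, 1.48%). Tph2+/- against Tph2+/+ gave 0 (0.546%) and Tph2-/- against Tph2+/+ gave 1, which was lower (0.748%). GE1, the MS effect in Tph2+/- minus that in Tph2+/+ mice, gave 1 (0.626%), and GE2, the same for Tph2-/- mice, gave 1 (0.558%), both positive. This made 10 calls of 584 tested pairs of locus and contrast (1.71%), against 1.21% over all loci, at 8 loci of 6 genes. Dnmt1 and Tet3 had 2 such loci each, and Tet1, Tet2 and Mbd2 had none.

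No member locus had a Benjamini-Hochberg adjusted p under 0.05 over all loci in any of the 8 contrasts with edgeR's quasi-likelihood test. At an unadjusted p under 0.05 there were 9 in MS against C over genotypes, 3, 3 and 7 within Tph2+/+, Tph2+/- and Tph2-/- mice, 1 and 3 for Tph2+/- and Tph2-/- against Tph2+/+, and 3 and 6 for GE1 and GE2. The shares of all loci at this limit were, in the same order, 12.2, 6.52, 4.36, 7.11, 3.47, 4.08, 3.71 and 3.36%. Of all loci, 0.0128% passed the adjusted limit in MS against C over genotypes, 0.00213% in Tph2+/- against Tph2+/+, 0.0139% in Tph2-/- against Tph2+/+ and 0% in the other contrasts. DESeq2's Wald test gave an adjusted p under 0.05 at 1 member locus, Dnmt1 in MS against C over genotypes. In that contrast it adjusted over only 20302 loci and passed 6.04% of them. In the remaining 7 contrasts it gave 0.

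**Figure D3:**
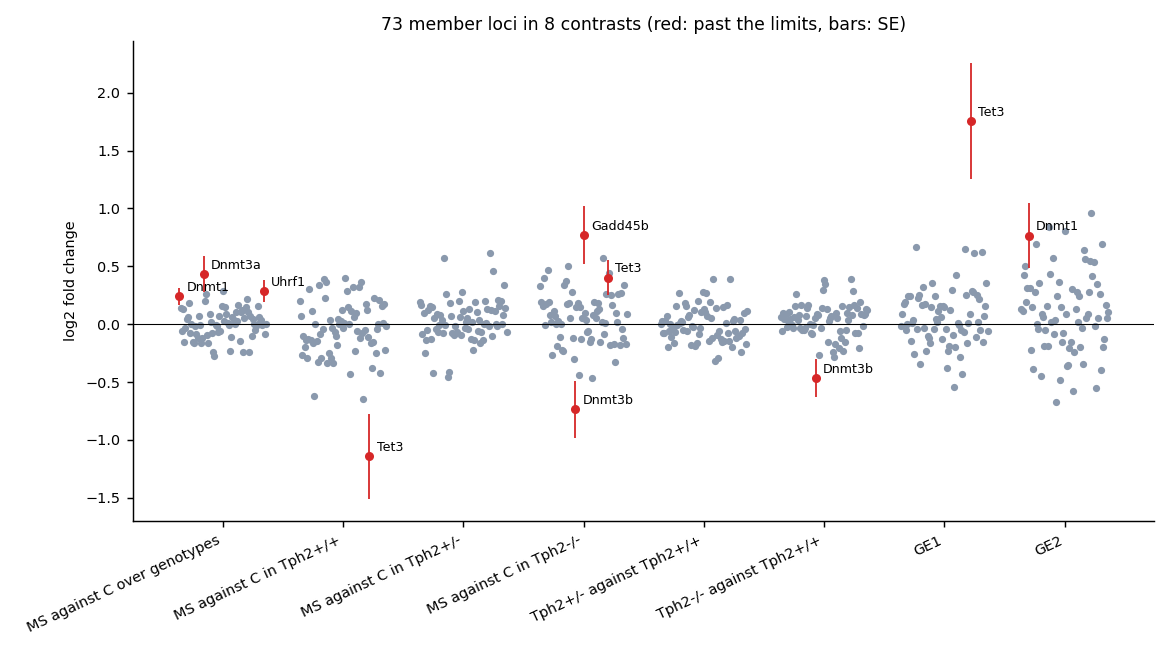
Log2 fold change (y) of the 73 loci in each of 8 contrasts (x), with loci past the limits in red with their SE (46 libraries). All but 10 of the 584 points are grey, and the interaction contrasts have the widest spread, where the median SE is 0.30 for GE1 and 0.31 for GE2 against 0.13 for MS over genotypes.

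The sequences of 5 of the called loci are given because the results turn on them. Each is the 240-base stretch of the locus with the most CpG outside untranslated exons, read 5′ to 3′ on the strand of the gene, with CpG in capitals, from GRCm38. The stretches are chr9:20908442-20908681 of Dnmt1 (13 CpG), chr6:83376729-83376968 of Tet3 (8 CpG, called in GE1), chr6:83368235-83368474 of Tet3 (18 CpG, called in Tph2-/- mice), chr2:153669268-153669507 of Dnmt3b (7 CpG) and chr10:80937109-80937348 beyond the end of Gadd45b (8 CpG).
Dnmt1: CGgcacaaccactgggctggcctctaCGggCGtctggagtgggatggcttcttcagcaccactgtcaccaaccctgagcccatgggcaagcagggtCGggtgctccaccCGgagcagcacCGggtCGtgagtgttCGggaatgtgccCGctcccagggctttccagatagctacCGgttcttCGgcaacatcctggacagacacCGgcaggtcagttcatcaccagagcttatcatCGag
Tet3, GE1: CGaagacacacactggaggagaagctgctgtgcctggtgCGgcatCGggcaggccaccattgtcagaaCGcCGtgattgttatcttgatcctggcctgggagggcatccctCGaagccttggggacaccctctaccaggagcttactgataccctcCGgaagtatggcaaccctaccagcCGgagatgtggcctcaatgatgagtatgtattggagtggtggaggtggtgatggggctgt
Tet3, Tph2-/-: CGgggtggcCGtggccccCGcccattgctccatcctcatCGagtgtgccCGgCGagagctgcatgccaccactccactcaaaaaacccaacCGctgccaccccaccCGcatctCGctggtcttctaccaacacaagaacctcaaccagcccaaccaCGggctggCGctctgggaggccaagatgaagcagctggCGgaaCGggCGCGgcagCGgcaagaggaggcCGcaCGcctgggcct
Dnmt3b: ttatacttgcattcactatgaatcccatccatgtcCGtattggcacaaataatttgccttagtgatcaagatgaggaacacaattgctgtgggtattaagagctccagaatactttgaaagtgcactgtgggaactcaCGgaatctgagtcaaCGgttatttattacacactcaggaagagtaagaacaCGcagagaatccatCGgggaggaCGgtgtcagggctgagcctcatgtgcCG
Gadd45b flank: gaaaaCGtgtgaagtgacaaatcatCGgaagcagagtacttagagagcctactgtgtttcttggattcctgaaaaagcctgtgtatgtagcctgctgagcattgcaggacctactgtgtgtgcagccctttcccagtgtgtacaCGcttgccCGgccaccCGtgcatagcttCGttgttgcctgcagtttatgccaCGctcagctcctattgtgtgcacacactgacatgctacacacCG

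Among the writers, the locus at the 3′ end of Dnmt1, chr9:20906737-20910243, was the widest member locus and the one with the most counts (150 per library on average). Its lowest, median and highest levels were 9.30, 12.9 and 16.8 CPM in C and 12, 14.5 and 22 CPM in MS. The MS libraries lay higher in their centre, and the ranges overlapped. The difference over genotypes was a log2 fold change of 0.24 (SE 0.07, edgeR adjusted p = 0.161, DESeq2 adjusted p = 0.0326). The edgeR value is adjusted over 187695 loci and the DESeq2 value over only 20302, so the 2 are not alike. Within genotypes the log2 fold change of this locus was 0.20 for wildtype, 0.19 for heterozygous and 0.33 for knockout mice. In MS libraries S18 to S26 it averaged 16.5 ± 2.81 CPM (SD, n = 8) and in S27 to S41 14.2 ± 1.34 CPM (SD, n = 14), while C averaged 13.3 ± 1.57 CPM in S1 to S17 (SD, n = 17) and 11.6 ± 1.80 CPM in S42 to S48 (SD, n = 7). Without S18 to S26 the log2 fold change was 0.14, which did not pass the limits.

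A second Dnmt1 locus, chr9:20920548-20921885 in an intron, was called in GE2. In Tph2+/+ mice it held 2.12, 3.58 and 5.28 CPM in C and 1.96, 2.95 and 3.55 CPM in MS. In Tph2-/- mice it held 1.79, 2.72 and 4.14 CPM in C and 1.85, 3.74 and 5.78 CPM in MS. The medians thus moved in opposite directions, and the 4 groups overlapped. The interaction was 0.77 on the log2 scale (SE 0.28, edgeR adjusted p = 1.0). With all 48 libraries it was 0.62, which did not pass the limits. It passed them in 9 of 10 alternatives, with values up to 1.10, and no adjusted p was under 0.998.

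For Dnmt3a, the de novo writer that is prominent in neurons after birth, the locus nearest to the gene start was chr12:3849195-3850161. It was centred 43671 bp into the gene, over a coding exon, and 11343 bp from the nearest coding transcript start. This locus held 0.394, 1.57 and 3.14 CPM in C and 0.522, 2.24 and 4.58 CPM in MS. The groups overlapped over most of their range. The log2 fold change over genotypes was 0.43 (SE 0.16, edgeR adjusted p = 0.241). The run S18 to S26 averaged 2.92 ± 0.993 CPM (SD, n = 8) against 1.96 ± 0.803 CPM in S27 to S41 (SD, n = 14), and without S18 to S26 the log2 fold change was 0.10, which did not pass the limits.

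In Dnmt3b, the locus chr2:153669119-153669978 over a coding exon had its lowest levels in Tph2-/- MS mice. It held 0.960, 1.42 and 1.53 CPM in Tph2-/- MS (6 libraries) and 1.64, 2.20 and 2.76 CPM in Tph2-/- C (8 libraries), so the ranges of these groups did not overlap. This locus was picked by its small p, and how many other loci separate in this way was not counted. The log2 fold change was -0.73 (SE 0.25, edgeR adjusted p = 0.655). Replicates 3 and 7, which were outside the fit, had 1.95 and 1.07 CPM, the former inside the range of C. The contrast of Tph2-/- with Tph2+/+ mice at the same locus, -0.47 (SE 0.16, edgeR adjusted p = 1.0), rested on the same 6 libraries, since Tph2-/- C (2.28 ± 0.366 CPM, SD, n = 8) lay close to Tph2+/+ C (2.49 ± 0.827 CPM, SD, n = 8). Without S18 to S26 the values were -0.65 and -0.50, and neither passed the limits.

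Among the erasers, Tet3 had both called loci. The narrow locus chr6:83376667-83377143, with 12.8 counts per library on average and thus among the least counted, carried the largest log2 difference of all member loci over the 8 contrasts. In Tph2+/+ mice its lowest, median and highest levels were 0.656, 1.01 and 3.21 CPM in C and 0, 0.513 and 1.86 CPM in MS. In Tph2+/- mice they were 0.560, 0.867 and 1.71 CPM in C and 0.851, 1.58 and 2.39 CPM in MS. The medians were lower in MS in wildtype and higher in MS in heterozygous mice, with overlapping ranges in both. MS against C was -1.14 in Tph2+/+ mice (SE 0.37, edgeR adjusted p = 0.749), and GE1 was 1.76 (SE 0.50, edgeR adjusted p = 1.0). In Tph2+/- mice alone the log2 fold change was 0.62 and did not pass the limits. Without S18 to S26 the Tph2+/+ difference was -1.84 and GE1 was 2.53 (edgeR adjusted p = 0.774).

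The second Tet3 locus, chr6:83366075-83368934 over a coding exon, was the most captured locus of the gene. It held 7.89, 9.67 and 11.8 CPM in Tph2-/- C and 7.83, 12 and 20.6 CPM in Tph2-/- MS. The MS libraries spanned both lower and higher values than C. The log2 fold change was 0.40 (SE 0.15, edgeR adjusted p = 0.665), and without S18 to S26 it was 0.03, which did not pass the limits. It was 0.22 without Tph2-/- MS replicate 2 alone, the library at 20.6 CPM. Tet1 and Tet2 had no locus past the limits in the 8 contrasts. The most captured Tet1 locus by CPM, chr10:62812127-62814143 over a coding exon, held 5.80, 7.41 and 9.68 CPM in C and 4.92, 7.64 and 9.88 CPM in MS, and that of Tet2, chr3:133512697-133513625 over a non-coding exon, held 1.71, 3.01 and 4.47 CPM in C and 1.74, 3.18 and 4.49 CPM in MS. In both the ranges of C and MS nearly coincided.

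Among the readers and cofactors, the Uhrf1 locus chr17:56317603-56318691 over a coding exon held 2.59, 3.74 and 4.95 CPM in C and 2.46, 4.49 and 7.17 CPM in MS. The highest MS libraries exceeded all of C, and the lowest values were alike. The log2 fold change over genotypes was 0.28 (SE 0.10, edgeR adjusted p = 0.209), and without S18 to S26 it was 0.14, which did not pass the limits. The Gadd45b locus chr10:80936835-80937640, beyond the end of this gene in no annotated gene, held 0.205, 2.11 and 2.74 CPM in Tph2-/- C and 1.98, 2.85 and 4.86 CPM in Tph2-/- MS. The MS libraries all lay above the lower part of the C range, and the ranges overlapped. The log2 fold change was 0.77 (SE 0.25, edgeR adjusted p = 0.655), and 0.32 without S18 to S26, which did not pass the limits. Mbd2 had no called locus, and its 4 loci summed to 7.72, 8.85 and 10.8 CPM in Tph2+/+ C and 7.11, 10.5 and 12.3 CPM in Tph2+/+ MS.

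**Figure D4:**
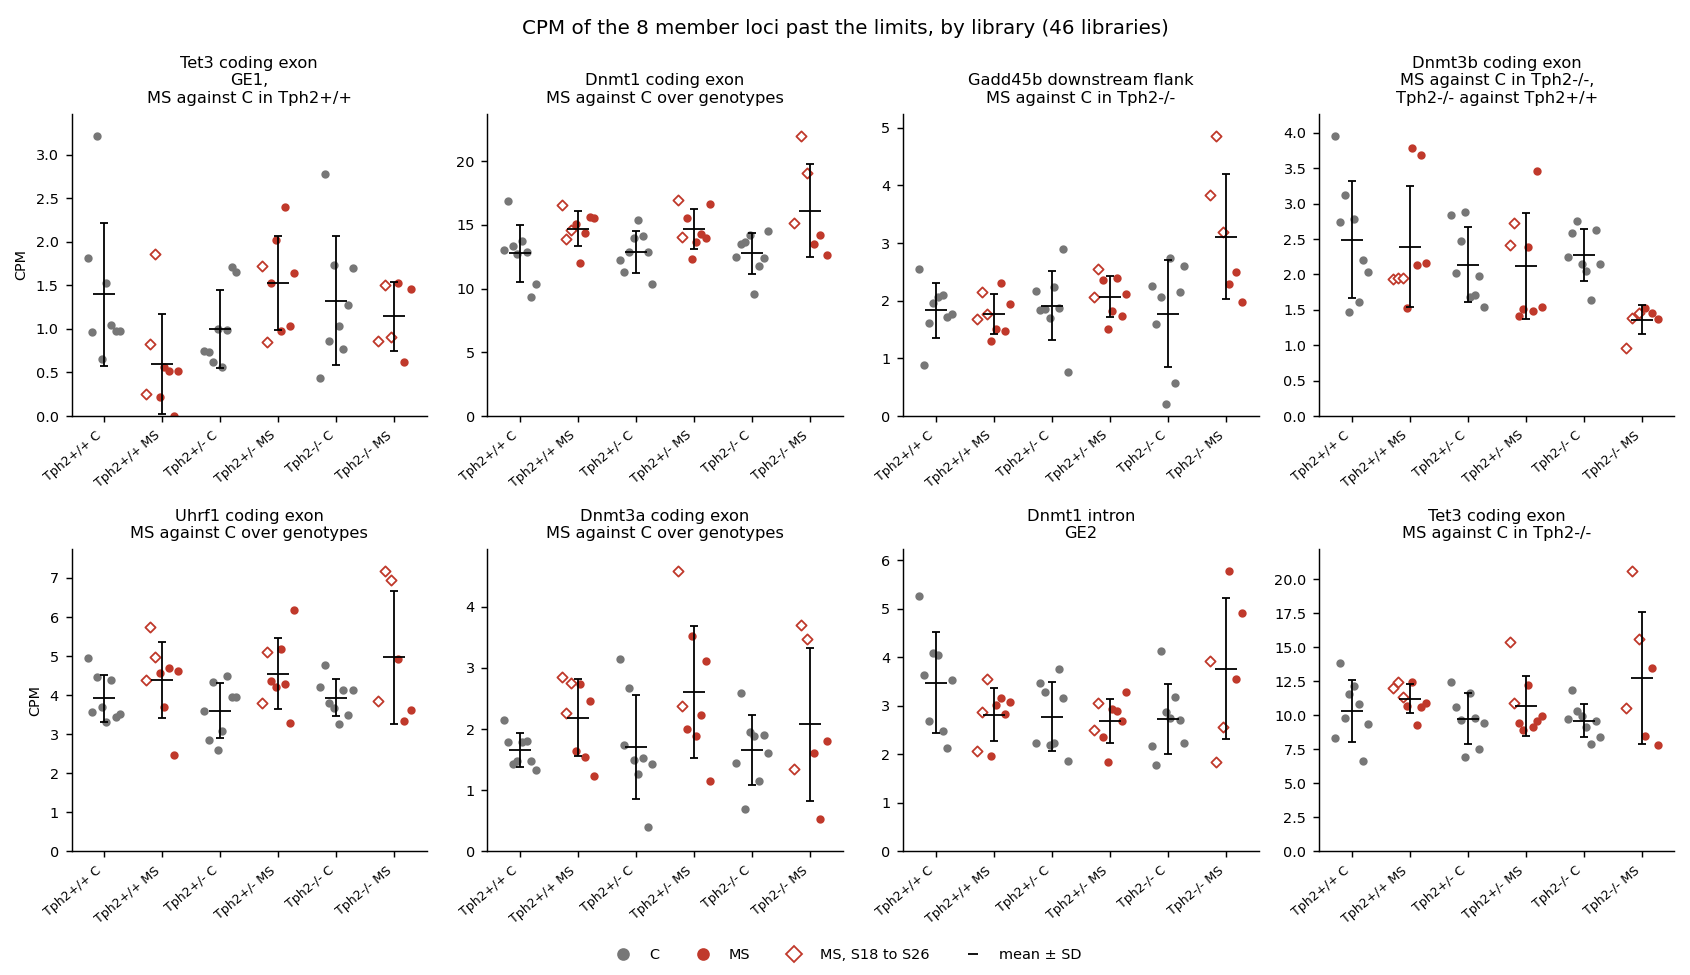
CPM (y) of the 8 called loci in each of 46 libraries by group (x), in order of sample number within a group, with mean ± SD, C in grey, MS in red and MS libraries S18 to S26 as open diamonds. The 6 Tph2-/- MS points of Dnmt3b lie at or under 1.53 CPM, below all 8 Tph2-/- C points, and open diamonds are the highest Tph2-/- MS points of the Dnmt1 coding exon, Gadd45b, Uhrf1 and Dnmt3a loci and of the Tet3 locus called in Tph2-/- mice.

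Summing the loci of a gene gave smaller differences. Of the 9 genes, 0 passed the limits in MS against C over genotypes (background 2.89% of all genes), within Tph2+/+ (1.41%), Tph2+/- (0.705%) and Tph2-/- mice (1.58%), in Tph2+/- against Tph2+/+ (0.354%), in GE1 (0.513%) and in GE2 (0.422%), and 1 passed in Tph2-/- against Tph2+/+ (0.538%). The edgeR count at an unadjusted p under 0.05 was 1 gene each in MS against C over genotypes, in MS against C in Tph2-/- mice and in Tph2-/- against Tph2+/+, in each case Gadd45b, and 0 in the other 5 contrasts. Of all genes, 15.5%, 8.31% and 3.95% were under this limit in the contrasts with Gadd45b. The shares were 7.19% and 4.19% for MS in Tph2+/+ and Tph2+/- mice, 3.01% for Tph2+/- against Tph2+/+, 3.26% for GE1 and 3% for GE2. DESeq2 gave the same numbers of member genes. Dnmt1, with the most counts (557 to 1226 per library), had the narrowest estimate, 0.03 for MS against C over genotypes (SE 0.03), and its group medians ran from 79.5 to 85.8 CPM. The log2 fold changes of the summed counts in MS against C over genotypes ran from -0.06 for Dnmt3b to 0.20 for Gadd45b, with a median of 0.03.

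Gadd45b was the exception, with the fewest counts (15 to 85 per library) from its 2 flanking loci. Its sum was 2.07, 3.44 and 3.78 CPM in Tph2+/+ C and 2.60, 3.46 and 4.01 CPM in Tph2+/+ MS, against 1.55, 3.86 and 5.08 CPM in Tph2-/- C and 3.59, 4.62 and 7.03 CPM in Tph2-/- MS. The highest values stood in Tph2-/- MS, and the ranges of all 4 groups overlapped. The sum was higher in Tph2-/- than in Tph2+/+ mice by 0.33 on the log2 scale (SE 0.12, edgeR adjusted p = 0.999), and without S18 to S26 by 0.18, which did not pass the limits. In MS against C over genotypes it differed by 0.20 (SE 0.10, edgeR adjusted p = 0.311), which did not pass the limits.

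**Figure D5:**
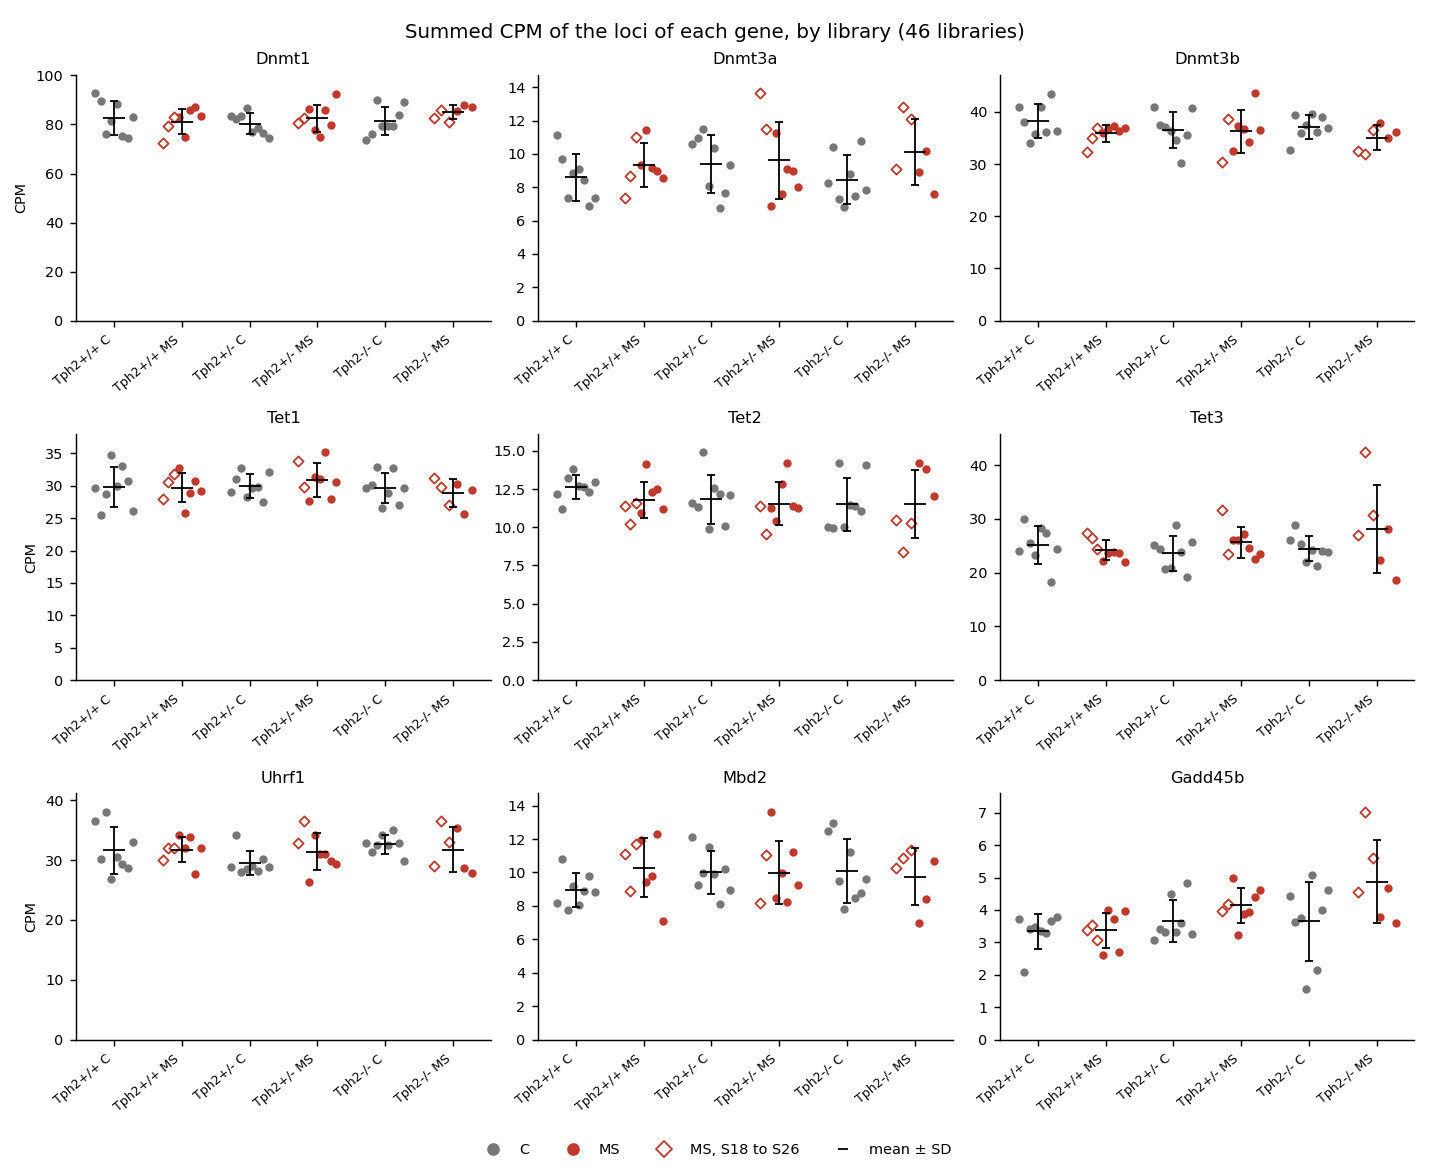
Summed CPM (y) over the loci of each of the 9 genes in 46 libraries by group (x), in order of sample number within a group, with mean ± SD, C in grey, MS in red and MS libraries S18 to S26 as open diamonds. The 6 groups overlap in every panel, and the highest Tet3 value, 42.4 CPM, and the highest Gadd45b value, 7.03 CPM, belong to open diamonds of the Tph2-/- MS group.

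Runs of sample numbers within a single condition went with differences over the whole set of loci, and the member loci were not set apart from it. Between MS libraries S18 to S26 and S27 to S41, 7 of the 73 loci (9.59%) passed the limits, 5 higher and 2 lower in S18 to S26, and 6 had an edgeR adjusted p under 0.05, against 13.3% and 11% of all loci. They included the Tet3 locus at 83366075 (log2 fold change 0.40, SE 0.11, adjusted p = 0.00846), the Tet1 locus at 62879002 (0.42, SE 0.13, adjusted p = 0.0173), the Dnmt3a locus at 3849195 (0.70, SE 0.21, adjusted p = 0.0165), a Dnmt3b locus at 153676440 (-0.71, SE 0.21, adjusted p = 0.0139) and a Dnmt1 locus at 20936999 (-0.98, SE 0.31, adjusted p = 0.0243). Between C libraries S42 to S48 and S1 to S17, 2 loci (2.74%) passed, both lower in S42 to S48, in Tet1 and Tet3 (background 2.45%). Among the 73 loci, 0 had an adjusted p under 0.05 (0.00213% of all loci), and 7 had an unadjusted p under 0.05 (8.65% of all loci). DESeq2 was not run on these runs. The summed Tet3 level was 29.2 ± 6.02 CPM in S18 to S26 (SD, n = 8) and 23.9 ± 2.46 CPM in S27 to S41 (SD, n = 14). Their part in the MS results was not tested beyond the values given without S18 to S26.

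Of 29 other genes of the pathway, 23 held a locus, again 73 in all. Past the limits were 1 locus in MS against C over genotypes, 0, 2 and 1 within Tph2+/+, Tph2+/- and Tph2-/- mice, 1 in Tph2+/- against Tph2+/+, 0 in Tph2-/- against Tph2+/+, 0 in GE1 and 1 in GE2, none with an edgeR adjusted p under 0.05. Upstream of Mbd1, a reader, the level was 37.7, 51.7 and 57.7 CPM in Tph2+/+ C and 50.5, 55.8 and 70.7 CPM in Tph2+/+ MS. It was 44.4, 53.0 and 54.7 CPM in Tph2+/- C and 43.5, 55.9 and 69.4 CPM in Tph2+/- MS, and 46.2, 51.0 and 59.1 CPM in Tph2-/- C and 40.3, 57.7 and 102.4 CPM in Tph2-/- MS. The lowest MS libraries of the last 2 genotypes lay under all of their C libraries, and the log2 fold change over genotypes was 0.21 (SE 0.07, edgeR adjusted p = 0.178). Without S18 to S26 the Mbd1 locus did not pass the limits. Upstream of Dnmt3l, the catalytically inactive partner of the de novo methyltransferases, the level was 0.980, 1.53 and 2.27 CPM in Tph2+/- C and 1.4, 2.47 and 3.28 CPM in Tph2+/- MS, a log2 fold change of 0.65 (SE 0.22, edgeR adjusted p = 1.0). Its C medians were higher in Tph2+/+ (1.96 CPM) and Tph2-/- mice (2.54 CPM), so Tph2+/- C was the low group. Idh2, which makes the cofactor of the TET enzymes, differed in an intron by 0.78 in the same contrast (SE 0.27, edgeR adjusted p = 1.0). Its median was 1.02 CPM in Tph2+/- C and 1.75 CPM in Tph2+/- MS. The C medians of Tph2+/+ and Tph2-/- mice were again higher, 1.93 and 1.41 CPM. A coding exon locus of Tdg, the glycosylase that removes oxidised methylcytosine, had a GE2 of 0.76 (SE 0.26, edgeR adjusted p = 1.0). In Tph2-/- MS the Tdg locus held 3.34, 4.35 and 11.5 CPM, and without the highest library, replicate 2, its GE2 was 0.43. At a locus upstream of Gadd45g heterozygous mice differed from wildtype by -0.32 on the log2 scale (SE 0.12, edgeR adjusted p = 1.0). The 1.37% to 2.74% of pathway loci past the limits where any passed lie beside the same backgrounds as above.

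For each gene the most similar profile over the 46 libraries was sought among genes with a mean summed count of at least 100 that shared no locus with it (log2 CPM plus 0.5). Tet3 had the closest match, Bahcc1, with a Pearson coefficient of 0.82. Dnmt3a was closest to Etv3 (0.64), Dnmt3b to Epb41 (0.64), Uhrf1 to Hip1r (0.62), Tet2 to Gm10475 (0.61), Mbd2 to Cytl1 (0.58), Gadd45b to Rasgrp2 (0.56), Dnmt1 to Cnr2 (0.55) and Tet1 to Dnah2os (0.48). Each coefficient is the highest of at least 15961 compared genes and shares the libraries and their depth, and it is given as a description.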

How the data were processed

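MBD-seq counts from 48 libraries were analysed. According to the labels and the study's methods, the authors mapped 50-base read pairs with Bowtie2 2.1.0 to GRCm38, called peaks with MACS, merged peaks over libraries and counted reads in them with DiffBind 2.0.9. The table they deposited gives raw read counts per locus, not normalized, and all 48 columns were matched to a sample. Of the nonzero counts at the member loci 61.9% were even, so both reads of a pair may have been counted and a count is not always an independent molecule. A count also depends on CpG density and on the copy number of the sequence.

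Loci were assigned to genes, exons and flanks of 5 kb with GENCODE on GRCm38. Promoter sequences came from RefSeq (GRCm38.p6), and the other sequences from the GRCm38.p6 genome. All 187695 loci, and separately all 37004 gene sums, were tested with edgeR 4.0.16 in R 4.3.3, by TMM normalization, trended dispersion and a robust quasi-likelihood model of the 6 groups, over 46 libraries. The study left out 2 Tph2-/- MS libraries that the labels do not name, and replicates 3 and 7, with the lowest totals, took their place here. Calls used the study's limits, a log2 fold change of more than 0.2 either way at an unadjusted p under 0.01, and separately a Benjamini-Hochberg adjusted p under 0.05 over all features. CPM values are TMM-normalized. SE is the log2 fold change divided by the square root of the F value. DESeq2 1.42.0 (no fold-change prior) was an alternative, and its own filter can leave fewer features to adjust over. The closing section gives the other alternatives, among them each library left out in turn, chosen after seeing the data. The fit was checked on simulated data. Litters are not in the labels, so mice of a litter were not modelled.

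The named loci were, for each gene, the locus with the highest mean CPM and the locus nearest to the gene start, all member loci past the limits, and up to 5 pathway loci with the smallest p. The 9 genes, the lists and the tests were chosen with earlier results of these data known.

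Same-numbered replicates did not deviate together (mean correlation 0.020 over 110 pairs, against -0.0027 over 770 other pairs).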

Additional observations from a re-analysis of the deposited data

Results flagged for a closer look

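In 8 of 180 sets of values (4.44%) at the named loci and gene sums, 1 library stood apart from the others of its group, where chance flags about 1 in 20. These were Dnmt3b summed in Tph2+/+ MS replicate 1 (32.2 CPM, the others 35 to 37.3), Uhrf1 summed in Tph2+/- C replicate 2 (34.2 CPM, 28.1 to 30.1), and Gadd45b summed in Tph2+/+ C replicate 2 (2.07 CPM, 3.29 to 3.78). At single loci they were the Dnmt1 upstream locus at 20960375 in Tph2+/- C replicate 4 (4.28 CPM, 2.1 to 2.99), the Tet1 upstream locus at 62912313 in Tph2+/+ MS replicate 8 (5.65 CPM, 3.08 to 3.71), and the Dnmt3b locus at 153669119 in Tph2-/- MS replicate 1 (0.960 CPM, 1.38 to 1.53). At the Tet3 locus 83376667 a library stood apart in each wildtype group, Tph2+/+ C replicate 3 (3.21 CPM, 0.656 to 1.81) and Tph2+/+ MS replicate 3 (1.86 CPM, 0 to 0.822).

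In the interaction contrasts 3 named loci passed the unadjusted limits of the study. They were Tet3 at 83376667 (GE1 of 1.76), Dnmt1 at 20920548 (GE2 of 0.77) and Tdg at 82643822 (GE2 of 0.76). Of all loci, 0.626% passed these limits in GE1 and 0.558% in GE2. None of the 3 named loci had an edgeR adjusted p under 0.05, so a different MS effect between genotypes was not established at them.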

How the results depend on the processing

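The 10 calls at member loci and the Gadd45b sum kept their direction under all alternatives run, where 79 of their values still passed the limits and 28 did not. The Tet3 locus at 83376667 passed in all 10 alternatives for both of its contrasts (GE1 of 1.75 to 2.53, adjusted p from 0.774 to 1.0). The alternatives refitted mostly the same libraries, at loci picked by their p in the main fit. Passing again is therefore not independent support. The counts of calls are small, so most shifts are of 1 or 2 loci.

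The percentages in brackets here are the shares of all loci past the limits under the same setting. For the counts of member genes no such share was computed. Without S18 to S26, member loci past the limits numbered 0 in MS over genotypes (1.26%), 2 in GE2 (0.855%), 1 in Tph2+/- against Tph2+/+ (0.738%) and 0 in Tph2-/- against Tph2+/+ (0.653%). Member genes numbered 0 in Tph2-/- against Tph2+/+. Pathway loci numbered 4 in GE1 (0.766%), 2 in Tph2+/+ MS (0.977%), 0 in MS over genotypes, 0 in Tph2+/- and 1 in Tph2-/- against Tph2+/+. With total counts alone, member loci numbered 2 in GE1 (1.28%), 2 in Tph2+/+ MS (2.09%) and 0 in MS over genotypes (3.24%). Pathway loci then numbered 4 in GE1, 1 in Tph2+/+ MS, 0 in Tph2-/- MS (1.29%), 2 in MS over genotypes and 0 in Tph2+/- against Tph2+/+ (0.464%). When replicate 2 of Tph2-/- MS was dropped and replicate 7 kept, with replicate 3 still out, there were 2 member loci in Tph2+/+ MS (1.60%), 1 in Tph2-/- MS (0.855%) and 1 in MS over genotypes (2.58%). There were then 0 member genes in Tph2-/- against Tph2+/+, and 1 pathway locus in GE1 (0.687%) and 0 in GE2 (0.600%), Tph2-/- MS and MS over genotypes. With all 48 libraries there were 0 member loci in GE2 (0.631%), and 1, 2 and 3 pathway loci in GE1 (0.548%), Tph2-/- MS (5.37%) and MS over genotypes (5.79%). A covariate for S42 to S48 gave 1 member locus in MS over genotypes (2.39%). It gave 4, 0 and 1 pathway loci in Tph2+/- MS (0.747%), Tph2-/- MS (1.16%) and Tph2-/- against Tph2+/+ (0.806%). Only the groups of a contrast gave 2 member loci in Tph2+/+ MS (1.60%) and 1 in Tph2-/- MS (0.979%), 0 member genes in Tph2-/- against Tph2+/+, and 1 and 0 pathway loci in GE1 (0.679%) and Tph2-/- MS. DESeq2 gave 1 pathway locus in GE1 (0.784%) and 0 in Tph2-/- MS (1.72%), and the low-count filter gave 1 in GE1 (0.627%). An edgeR adjusted p under 0.05 left 0 member loci in every contrast. Gene bodies without flanks gave 0 member genes in Tph2-/- against Tph2+/+. That count was fixed in advance for Gadd45b, the gene called there, since both of its loci lie in its flanks. The cause of the other shifts was not tested.

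Leaving out each library in turn was added after the data were seen and gives the log2 fold change alone, at the dispersion of all 46 libraries. No called value at the member loci, the Gadd45b sum or the pathway loci changed sign. Without Tph2-/- MS replicate 2, 3 values moved by over 1.5 times, namely Tet3 at 83366075 in Tph2-/- mice (0.40 to 0.22), Tdg in GE2 (0.76 to 0.43) and Smug1 in Tph2-/- mice (0.45 to 0.22).

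The replicate numbers do not pair the mice, as 8 of 46 libraries were closest to a library of their own number. With the replicate block there were 2 member loci in Tph2+/+ MS and 0 in Tph2-/- against Tph2+/+, and 3 pathway loci in MS over genotypes and 1 in Tph2-/- against Tph2+/+.

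The depth of 27.5 counts at the median member locus and a median CV of 29.5% between libraries limit single loci, and the median SE of 0.30 in GE1 means that small interactions were not detectable.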
